A study of Mus musculus with 10 samples.

Results

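The Id proteins and the E proteins were followed here through 7 genes, Id1, Id2, Id3, Id4, Tcf3, Tcf4 and Tcf12, of the 18193 genes on the array that the platform annotation gave a probe set of their own. Every probe set listed for these 7 genes was taken, which made 22 of the 45037 probe sets on the array. A probe set is a group of short probes read together as a single value, and levels of different probe sets are not comparable with each other. A log2 intensity above 5.78, the median of the whole table (55.1 on the linear scale), on at least 2 arrays was required for testing. This left 13 of the 22 probe sets, which belonged to 5 genes: Id3, Id2, Tcf3, Tcf12 and Tcf4.

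RNA came from invariant natural killer T (iNKT) cells sorted from the thymus of 6-week-old C57BL/6 mice, either wild type (WT) or Id3KO. All cells bound the tetramer and lacked CD24 and NK1.1. Stage 1 cells lacked CD44 and stage 2 cells carried it. There were 2 arrays of WT stage 1, 3 of WT stage 2, 2 of Id3KO stage 1 and 3 of Id3KO stage 2, with 1 sorted sample per array. The labels name the mutant only as Id3KO, call the arrays biological replicates, and do not say whether each came from a separate animal, so the tests measure the spread between these samples. The study asked what ID proteins do at successive checkpoints of iNKT cell development.

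E proteins are basic helix-loop-helix transcription factors that bind DNA as dimers at E-boxes, short motifs spelled CANNTG. Tcf3, Tcf4 and Tcf12 encode the E proteins measured here, and Tcf12 encodes HEB, which is required for iNKT cell precursors to form. Id proteins carry the helix-loop-helix but no DNA-binding region, so an E protein paired with an Id protein cannot bind its sites. In thymocytes Id3 is induced by antigen receptor signals through the ERK kinases and Egr factors, while Id2 is prominent in natural killer cells, innate lymphoid cells and effector T cells.

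The starts of the Id3 and Id2 genes are shown because these were the members whose level differed between the genotypes. Each sequence is the 250 bases before the RefSeq start on GRCm38.p6, with E-boxes in capitals. The Id3 sequence lies at chr4:136143572-136143821 on the plus strand, and the Id2 sequence at chr12:25096093-25096342 on the minus strand.
Id3: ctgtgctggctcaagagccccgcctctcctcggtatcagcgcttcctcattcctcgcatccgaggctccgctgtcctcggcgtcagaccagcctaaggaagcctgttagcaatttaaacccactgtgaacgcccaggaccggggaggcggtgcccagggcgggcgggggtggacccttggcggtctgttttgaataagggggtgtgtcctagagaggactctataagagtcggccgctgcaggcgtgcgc
Id2: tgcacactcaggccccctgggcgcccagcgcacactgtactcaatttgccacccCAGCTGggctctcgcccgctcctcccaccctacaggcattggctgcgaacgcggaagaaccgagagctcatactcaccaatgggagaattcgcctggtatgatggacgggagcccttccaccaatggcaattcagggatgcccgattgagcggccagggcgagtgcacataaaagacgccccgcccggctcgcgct
The motif CANNTG, which reads the same on both strands, was absent from the Id3 window and present once in the Id2 window, as CAGCTG 196 bases before the start. Of 32851 mouse promoter windows of the same length, 66.2% held a CANNTG and 27.7% held a form that E proteins favour, which is CAGCTG or else CAGGTG, whose opposite strand reads CACCTG. A match describes these letters only. Promoter sequences were found for 5 of the 7 members, Id2, Id3, Id4, Tcf3 and Tcf12.

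The sorted cells carried T cell and iNKT markers. Of 3 sort markers, Cd44 and Cd24a had a probe set of their own. Cd44 had means of 186 in WT and 193 in Id3KO at stage 1. At stage 2 they were 769 and 455 (log2 difference -0.82 ± 0.33, limma adjusted p = 0.241). Group means of Cd24a ran from 45.4 to 74.0. The summed intensity of the pair was 694.1 to 918.9 in WT stage 2 against 320.4 to 625.2 in Id3KO stage 2. All 6 iNKT and T cell identity genes, among them Cd3d and Zbtb16, were above the level required for testing. Of these, Thy1 differed by genotype, with means of 2668 in WT and 1315 in Id3KO at stage 1 (log2 difference -1.02 ± 0.21, limma adjusted p = 0.0842) and of 2978 and 1168 at stage 2 (-1.39 ± 0.17, limma adjusted p = 0.00385). Of 6 double-positive thymocyte genes, 5 (Rag1, Rag2, Ptcra, Dntt and Cd8b1) stayed below it, and the summed intensity of the list was 289.7 to 321.5 over all arrays. Summed markers of B cells, myeloid cells, thymic epithelium and endothelium lay between 229.8 and 309.9 on every array. The array medians lay between 54.75 and 55.49.

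Id3, the targeted gene, was low on every Id3KO array. Its probe set read 1289 and 1282 on the WT stage 1 arrays and 1065, 831 and 818 on the WT stage 2 arrays. It read 65.4 and 63.4 on the Id3KO stage 1 arrays and 67.2, 69.8 and 54.2 on the Id3KO stage 2 arrays. The genotypes did not overlap, and 4 of the 5 Id3KO arrays lay just above the 55.1 level. The log2 difference of Id3KO from WT was -4.32 ± 0.16 (SE) at stage 1 (limma adjusted p = 1.83e-05) and -3.83 ± 0.13 at stage 2 (limma adjusted p = 9.02e-06). Averaged over both stages, the Id3KO level was 5.94% of WT. With the Id3KO arrays near the level, this share is read only as an upper bound. The sources used here do not give the deleted part of Id3 or the position of these probes, so the signal near the level cannot be assigned to an RNA. The RNA of a whole sorted sample is measured, so fewer cells of a type and less RNA per cell cannot be told apart.

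Within WT, all 3 stage 2 arrays of Id3 lay below both stage 1 arrays. The log2 difference of stage 2 from stage 1 was -0.52 ± 0.14, with a 95% interval of -0.84 to -0.19, and it did not pass the test (limma adjusted p = 0.385). In Id3KO the difference was -0.02. The interaction of genotype and stage was 0.49 ± 0.20 (limma adjusted p = 0.698).

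**Figure D1:**
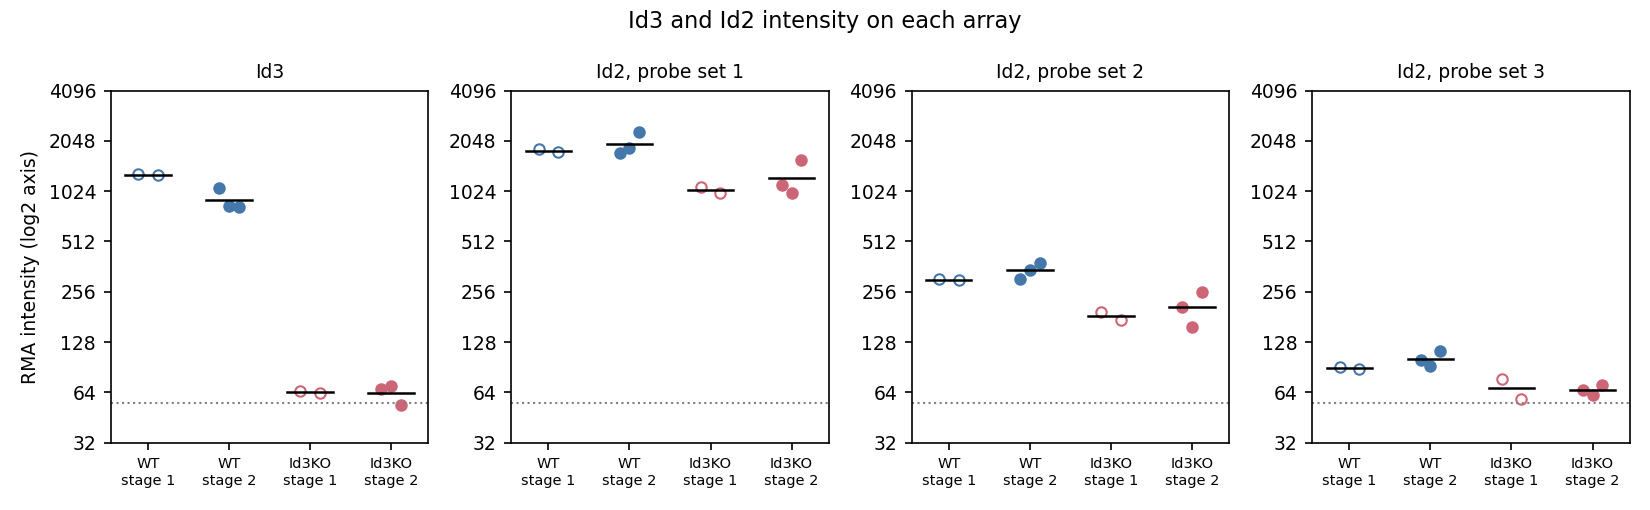
Intensity of the Id3 probe set and the 3 Id2 probe sets on each array, by genotype and stage (blue WT, red Id3KO, open stage 1, filled stage 2, black lines group means, dotted line the 55.1 level). The Id3KO arrays lie below the WT arrays in all 4 probe sets.

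Id2 was lower without Id3. It encodes the other Id protein that was above the level in these cells, and all 3 of its probe sets pointed the same way. The brightest Id2 probe set read 1832 and 1747.5 on the WT stage 1 arrays and 1737, 1860.4 and 2308 on the WT stage 2 arrays. It read 1091 and 998 on the Id3KO stage 1 arrays and 1111, 995 and 1571 on the Id3KO stage 2 arrays. Every Id3KO array was below every WT array, and replicate 3 was the highest of the stage 2 arrays in both genotypes.

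The other two Id2 probe sets showed the same separation. The first of them read 303.6 and 299.6 in WT stage 1, 306.7, 346.6 and 383.1 in WT stage 2, 193.9 and 173.7 in Id3KO stage 1, and 207.3, 158.4 and 255.7 in Id3KO stage 2. The dimmest read 90.9 and 88.6 in WT stage 1, 100, 91.8 and 113.3 in WT stage 2, 77.5 and 58.1 in Id3KO stage 1, and 66.1, 61.8 and 70.7 in Id3KO stage 2. In neither did an Id3KO array reach a WT array.

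Averaged over the stages, the log2 difference of Id3KO from WT was -0.74 ± 0.13 for the brightest Id2 probe set (95% interval -1.05 to -0.43, limma adjusted p = 0.0154). It was -0.74 ± 0.13 for the next (limma adjusted p = 0.0126) and -0.52 ± 0.10 for the dimmest (limma adjusted p = 0.0173). The Id3KO level was 59.9%, 60.0% and 69.8% of WT in the same order. The average is a test over 4 arrays at stage 1 and 6 at stage 2, and it did not pass without some stage 1 arrays. Without WT stage 1 replicate 1 or replicate 2 none of the 3 passed, with adjusted p of 0.0691 and 0.0577 for the brightest, 0.0567 and 0.0529 for the next and 0.0739 and 0.0631 for the dimmest. Without Id3KO stage 1 replicate 1 or 2 the brightest had an adjusted p of 0.0505 and 0.0611, and without replicate 2 the next had 0.0537.

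Taken by stage, the size of the Id2 difference was similar but fewer tests passed. At stage 1 the log2 differences were -0.78 ± 0.21, -0.72 ± 0.20 and -0.42 ± 0.15, and none passed (limma adjusted p = 0.186, 0.202 and 0.355). The dimmest was -0.63 without Id3KO stage 1 replicate 1 and -0.21 without replicate 2. At stage 2 they were -0.70 ± 0.17 (limma adjusted p = 0.0583), -0.76 ± 0.16 (0.0368) and -0.62 ± 0.12 (0.0273), so the last pair fell. The call of the middle probe set was lost without any 1 of the 10 arrays except Id3KO stage 2 replicate 3, with adjusted p of 0.0534 to 0.131. That of the dimmest was lost without WT stage 2 replicate 1 or 3 (0.0667 and 0.103) or Id3KO stage 2 replicate 1 or 2 (0.0717 and 0.087). With only the stage 2 arrays in the fit, the middle probe set had an adjusted p of 0.101, and with no filter 0.0613. Between the stages, the log2 differences of Id2 in WT were 0.13, 0.19 and 0.18, and none passed. The interactions of genotype and stage were 0.08, -0.04 and -0.20, and none passed, which does not show that the stages are alike.

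Some markers of iNKT subsets differed with genotype beside Id2. Of the 4 NKT2 markers, Il13 fell by 0.98 at stage 1 and 0.58 at stage 2 (limma adjusted p = 0.0240 and 0.0327). Gata3, Il4 and Il17rb did not pass at either stage, with log2 differences of 0.10, -0.12 and -0.20 at stage 2. The summed intensity of the NKT17 markers, 3 of 5 of which had a probe set, was 1014 to 1733 in WT stage 2 against 167.3 to 196.9 in Id3KO stage 2, and 213.4 to 371.9 against 199.2 to 233.0 at stage 1. For 6 NKT1 and natural killer markers, of which Ncr1 stayed below the level, the sum was 1109 to 1369 in WT stage 2 against 664.7 to 903.5 in Id3KO stage 2. At stage 1 it was 640.7 to 665.0 in WT against 841.3 to 1382 in Id3KO. The genes of this list did not move together. The mean of Klra8 was 41.5 in WT and 511 in Id3KO at stage 1 and 47.3 and 273 at stage 2. Its WT means lay below the level. At stage 2 Tbx21 fell by 1.79 and Klrd1 by 1.04 on the log2 scale (limma adjusted p = 0.00185 and 0.0379). The stage 2 mean of Ifng was 73.8 in WT and 45.7 in Id3KO, the latter below the level. Its fitted log2 difference was -0.69 (limma adjusted p = 0.00398). This call rests on the WT stage 2 arrays, and the size of the Ifng fall is not read. For 6 plasmacytoid dendritic cell markers, of which Spib stayed below the level, the sum was 1327.5 to 1474 in WT stage 2 against 2994.5 to 3136 in Id3KO stage 2. That sum followed Ccr9, a homing receptor that T cells also carry, whose mean was 904 in WT and 2644 in Id3KO. Irf8 differed by -0.74, Bst2 by -0.23, Ly6d by -0.05 and Siglech by 0.03 on the log2 scale at stage 2, and none of these 4 passed the test. The part of these cells in the Id2 result was not tested.

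Id1 and Id4, the remaining Id proteins, stayed below the level on every array. The Id1 probe set read 46.3 to 52.9 and the 3 Id4 probe sets 33.5 to 46.5. No difference was tested for them.

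**Figure D2:**
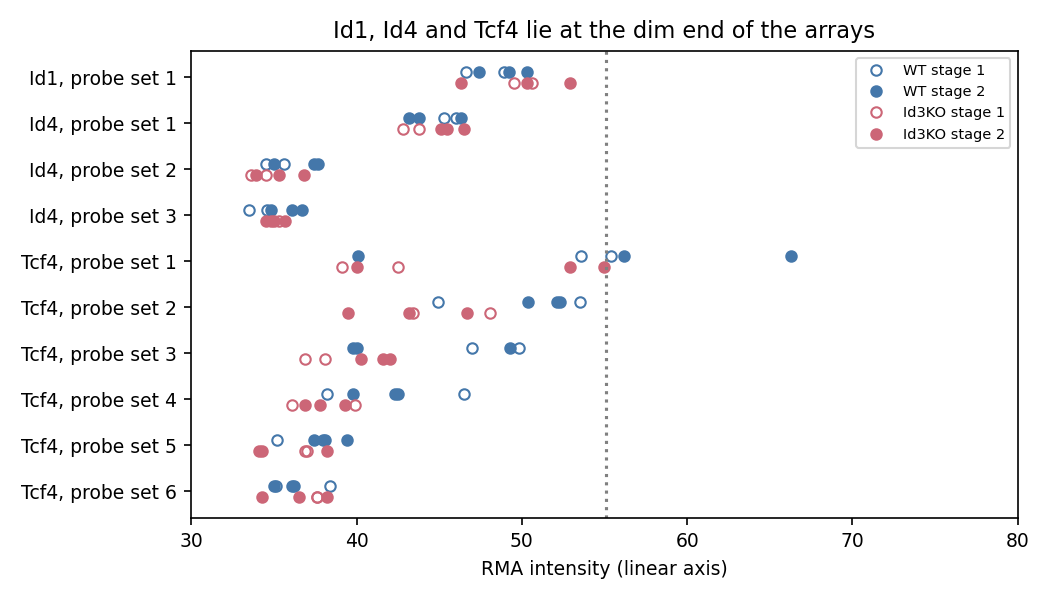
Intensity of the Id1, Id4 and Tcf4 probe sets on each array (blue WT, red Id3KO, open stage 1, filled stage 2, dotted line the 55.1 level). Only the brightest Tcf4 probe set rises above the level, on 3 arrays.

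Among the E proteins, no probe set passed the test in any comparison. Tcf3 encodes the E protein best known from early lymphocyte development. Its brightest probe set read 318 and 429 in WT stage 1, 265, 314 and 316 in WT stage 2, 348 and 307 in Id3KO stage 1, and 274, 274 and 311 in Id3KO stage 2. The genotypes overlapped at both stages. The log2 difference averaged over the stages was -0.12 ± 0.10 (95% interval -0.35 to 0.11, limma adjusted p = 0.666). In WT the stage 2 arrays lay below both stage 1 arrays, with a log2 difference of -0.31 ± 0.14 (limma adjusted p = 0.637), which was -0.53 without WT stage 1 replicate 1 and -0.098 without replicate 2. The other Tcf3 probe sets read 58.8 to 92.5 and 61.0 to 72.2.

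No Tcf12 probe set passed the test either. Its brightest probe set read 475 and 593 in WT stage 1, 492, 492 and 499 in WT stage 2, 519 and 477 in Id3KO stage 1, and 505, 386 and 488 in Id3KO stage 2. The genotypes overlapped at both stages, and the averaged log2 difference was -0.11 ± 0.10 (95% interval -0.32 to 0.11, limma adjusted p = 0.680). A dimmer Tcf12 probe set read 78.7 and 103.4 in WT stage 1 and 180.6 and 83.5 in Id3KO stage 1, where the spread between the Id3KO arrays was wider than the difference.

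Tcf4 was close to the level. Its brightest probe set read 55.4 and 53.6 in WT stage 1, 56.2, 40.1 and 66.3 in WT stage 2, 39.1 and 42.5 in Id3KO stage 1, and 52.9, 55 and 40 in Id3KO stage 2. Only 3 arrays, all of them WT, were above the level, so the probe set was tested through WT alone and its values below 55.1 have no reliable order. The fitted log2 difference at stage 1 was -0.42 ± 0.23 and did not pass (limma adjusted p = 0.594). The other 5 probe sets of Tcf4 read 34.1 to 53.5.

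**Figure D3:**
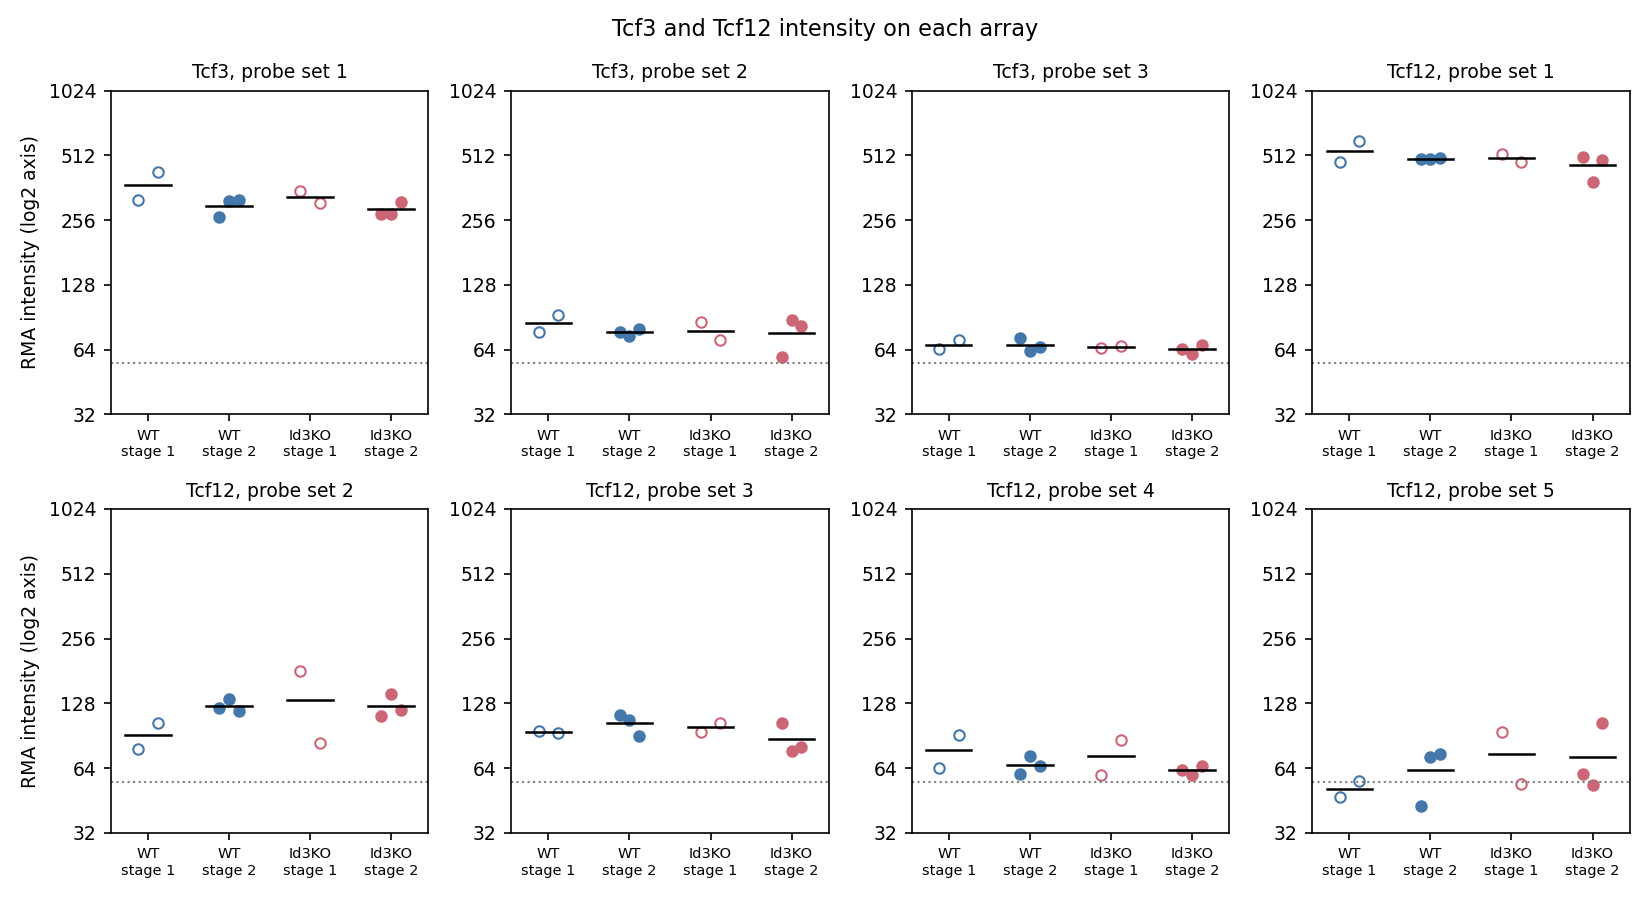
Intensity of the Tcf3 and Tcf12 probe sets on each array (blue WT, red Id3KO, open stage 1, filled stage 2, black lines group means). The genotypes overlap in the brightest probe set of each gene at both stages.

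Over the 9 E protein probe sets tested, the log2 difference of Id3KO from WT ranged from -0.42 to 0.48 at stage 1 and from -0.26 to 0.18 at stage 2. The ends at stage 1 were Tcf4 and the dimmest Tcf12 probe set, both near the level. That Tcf12 probe set read 42.5 to 103.4 and was above the level on 6 arrays. The brightest probe sets of Tcf3 and Tcf12 had -0.18 and -0.09 at stage 1. The lowest limma adjusted p was 0.594 at stage 1, 0.372 at stage 2 and 0.422 for the average, and 0 of the 9 had an unadjusted p under 0.05 in any comparison. A missed threshold does not show equal levels.

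Counted together, 1 of the 13 member probe sets was called lower in Id3KO at stage 1, where 0.343% of all probe sets were called lower and 0.802% in either direction. At stage 2 it was 3 of 13, against 2.39% lower and 4.21% in either direction, and in the average 4 of 13, against 2.79% and 4.97%. All were Id3 or Id2. Id3 is the targeted gene and was the only member called at stage 1. The others were probe sets of 1 gene, Id2, so these counts do not measure the family against the shares. No member was called higher, where 0.459% of all probe sets were at stage 1, 1.82% at stage 2 and 2.18% in the average. Members whose arrays did not overlap between genotypes numbered 5 of 13 at stage 1, against 41.5% of all probe sets and counting Tcf4 near the level, 4 at stage 2, against 21.4%, and 4 over both stages together, against 6.85%. Apart from Tcf4 at stage 1, these were again Id3 and the 3 Id2 probe sets. The median log2 difference of the members was -0.12 at stage 1, -0.12 at stage 2 and -0.11 in the average. Over all probe sets it was -0.01, 0.01 and 0.00.

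Between the stages, limma called 0 of 13 members in WT, where it called 0.016% of all probe sets, and 0 in Id3KO and in the interaction, where it called 0%. At an unadjusted p under 0.05 there was 1 member in WT, against 2019 of all 25061 probe sets, and 1 in the interaction, against 1772. It was Id3 in each case, and 1 of 13 is near the share of all probe sets. In the interaction this mostly restates the WT difference, because Id3 lay near the level in Id3KO. In Id3KO there were 0, against 1131. The arrays of the stages did not overlap for 5 members in WT, against 26.2% of all probe sets, and for 0 in Id3KO, against 18.4%. The 5 were Id3 and the brightest Tcf3 probe set, lower at stage 2, and the dimmer pair of Id2 probe sets and a Tcf12 probe set, higher at stage 2.

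**Figure D4:**
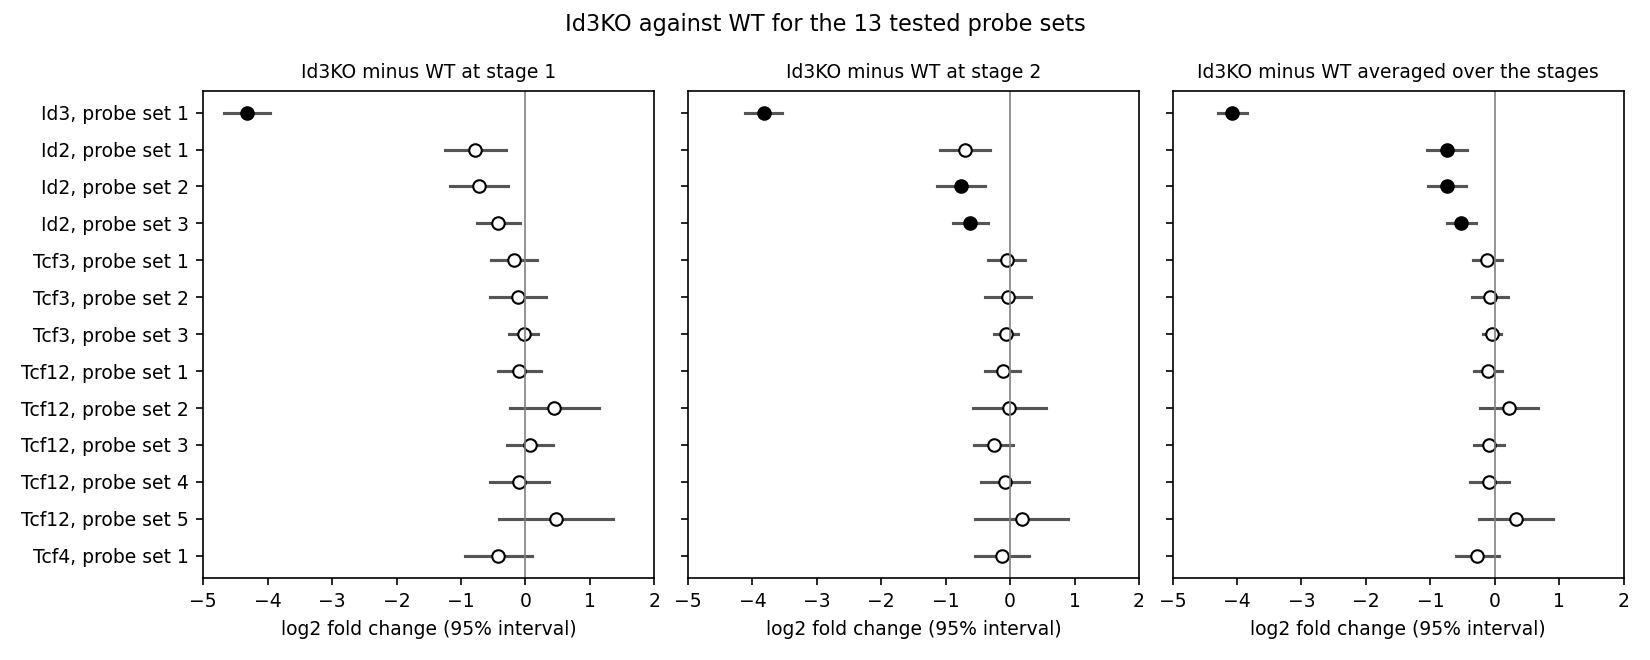
Log2 difference of Id3KO from WT at stage 1, at stage 2 and averaged over both, for the 13 tested member probe sets, with 95% intervals (filled, limma adjusted p under 0.05). Id3 lies between -4.32 and -3.83, the Id2 probe sets between -0.78 and -0.42, and the E protein probe sets on both sides of 0.

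Genes that work with the Id and E proteins were described from 4 lists. These were chosen with earlier results of these data known. The counts called in them therefore do not measure the lists against the shares of all probe sets. Of 17 tissue-restricted partners and LIM complex genes, 16 had a probe set and 7 were tested. In each of stage 1 and stage 2, 2 rose and 1 fell in Id3KO, where 0.459% of all probe sets were called higher and 0.343% lower at stage 1 and 1.82% and 2.39% at stage 2. The median log2 difference was 0.15 at stage 1 and -0.01 at stage 2. Lmo2, a LIM-only bridge in complexes of E proteins, rose by 0.89 ± 0.12 at stage 1 (limma adjusted p = 0.0155) and 1.66 ± 0.10 at stage 2 (limma adjusted p = 0.000179). Lmo4, a LIM-only protein that binds Ldb1, fell by 1.72 ± 0.13 (limma adjusted p = 0.00251) and 0.93 ± 0.10 (limma adjusted p = 0.00205). Tcf24, a basic helix-loop-helix gene, stayed below the level on all 5 WT arrays, at 45.2 to 54.5, and was tested only because the Id3KO arrays were above it, at 242.9 to 353.7 at stage 1 and 159.3 to 372.8 at stage 2. Set against the 55.1 level, it was at least 5.32-fold higher in Id3KO at stage 1 and at least 3.84-fold higher at stage 2. The test was of the fitted log2 differences, 2.52 and 2.14 (limma adjusted p = 0.0232 and 0.00677), and not of these bounds. Tcf24 is 1 of the 2 genes counted as higher at each stage, and its place in that count rests on the Id3KO arrays. The stage 1 calls of Lmo2 and Tcf24 were lost without any of the 4 stage 1 arrays, with adjusted p of 0.071 to 0.116 for Lmo2 and 0.0815 to 0.184 for Tcf24, which was also lost without WT stage 2 replicate 2 (0.050). With only the stage 1 arrays in the fit, Lmo2 had an adjusted p of 0.114 and Lmo4 and Tcf24 of 0.0561 each.

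Of 11 coactivators and corepressors that bind E proteins, 10 were tested. Limma called 0 of them at either stage, against 0.802% of all probe sets at stage 1 and 4.21% at stage 2. An unadjusted p under 0.05 was reached by 0, against 2629 of all 25061 probe sets at stage 1 and 4236 at stage 2. Their median log2 difference was -0.11 at stage 1 and -0.01 at stage 2.

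Of 21 genes known to depend on E proteins in T cells, 14 were tested. At stage 1, Gfi1, a transcriptional repressor, rose by 1.46 ± 0.23 (limma adjusted p = 0.0300) and the other 13 did not pass. Over all probe sets, 0.459% were called higher there and 0.343% lower. At stage 2, 2 rose and 4 fell, against 1.82% and 2.39% of all probe sets, with a median of -0.02. Gfi1 rose by 1.12 ± 0.19 (limma adjusted p = 0.0133) and Cdkn1a, a cell cycle inhibitor, by 0.33 ± 0.07 (limma adjusted p = 0.0427). Socs3, an inhibitor of cytokine signalling, fell by 2.29 ± 0.17 (limma adjusted p = 0.000454) and the receptor gene Notch1 by 0.72 ± 0.10 (limma adjusted p = 0.00645). Il7r, a chain of the interleukin-7 receptor, fell by 1.07 ± 0.21 (limma adjusted p = 0.0282) and the transcription factor gene Foxo1 by 0.84 ± 0.17 (limma adjusted p = 0.0278).

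Most of these calls did not hold without some single array. Gfi1 at stage 1 was lost without any stage 1 array (0.121 to 0.174) or WT stage 2 replicate 3 (0.0587), and at stage 2 without the same replicate (0.0588). Cdkn1a was lost without each of the 10 arrays (0.0521 to 0.142). Il7r was lost without either WT stage 1 array (0.0517), WT stage 2 replicate 2 or 3 (0.0964 and 0.107) or Id3KO stage 2 replicate 1 (0.053). Foxo1 was lost without WT stage 2 replicate 2 or 3 (0.0899 and 0.106) or Id3KO stage 2 replicate 1 (0.0511). Socs3 and Notch1 kept their stage 2 calls without each array. With only the stage 2 arrays in the fit the adjusted p was 0.0526 for Gfi1, 0.104 for Cdkn1a, 0.0879 for Il7r and 0.0699 for Foxo1, and with no filter it was 0.0513 for Il7r at stage 2 and 0.0585 for Gfi1 at stage 1.

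Of 16 genes of signals known to induce Id genes, 13 were tested. Limma called 0 at stage 1, against 0.802% of all probe sets. There 4 had an unadjusted p under 0.05, as did 2629 of all 25061 probe sets. Called lower at stage 2 were 1 of the 13 and 2.39% of all probe sets. At stage 2 Tgfbr1, a TGF-beta receptor chain, fell by 0.61 ± 0.11 (limma adjusted p = 0.0210), and the call was lost without WT stage 2 replicate 2 or 3 (0.0715 and 0.0721) or Id3KO stage 2 replicate 2 or 3 (0.066 and 0.0588) and with only the stage 2 arrays in the fit (0.0506). Averaged over the stages, 1 rose and 2 fell, against 2.18% and 2.79% of all probe sets. These genes were named after their values were seen. Egr2, an early antigen receptor target, rose by 0.51 ± 0.09 (limma adjusted p = 0.0153), a call lost without WT stage 1 replicate 2 (0.0716) or Id3KO stage 1 replicate 2 (0.062). Smad7 fell by 0.50 ± 0.11 (limma adjusted p = 0.0375) and Smad3 by 0.41 ± 0.10 (limma adjusted p = 0.0499); both are TGF-beta signalling genes. The Smad3 call was lost without each array (0.0523 to 0.181) and that of Smad7 without each array except Id3KO stage 2 replicate 3 (0.0503 to 0.140).

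**Figure D5:**
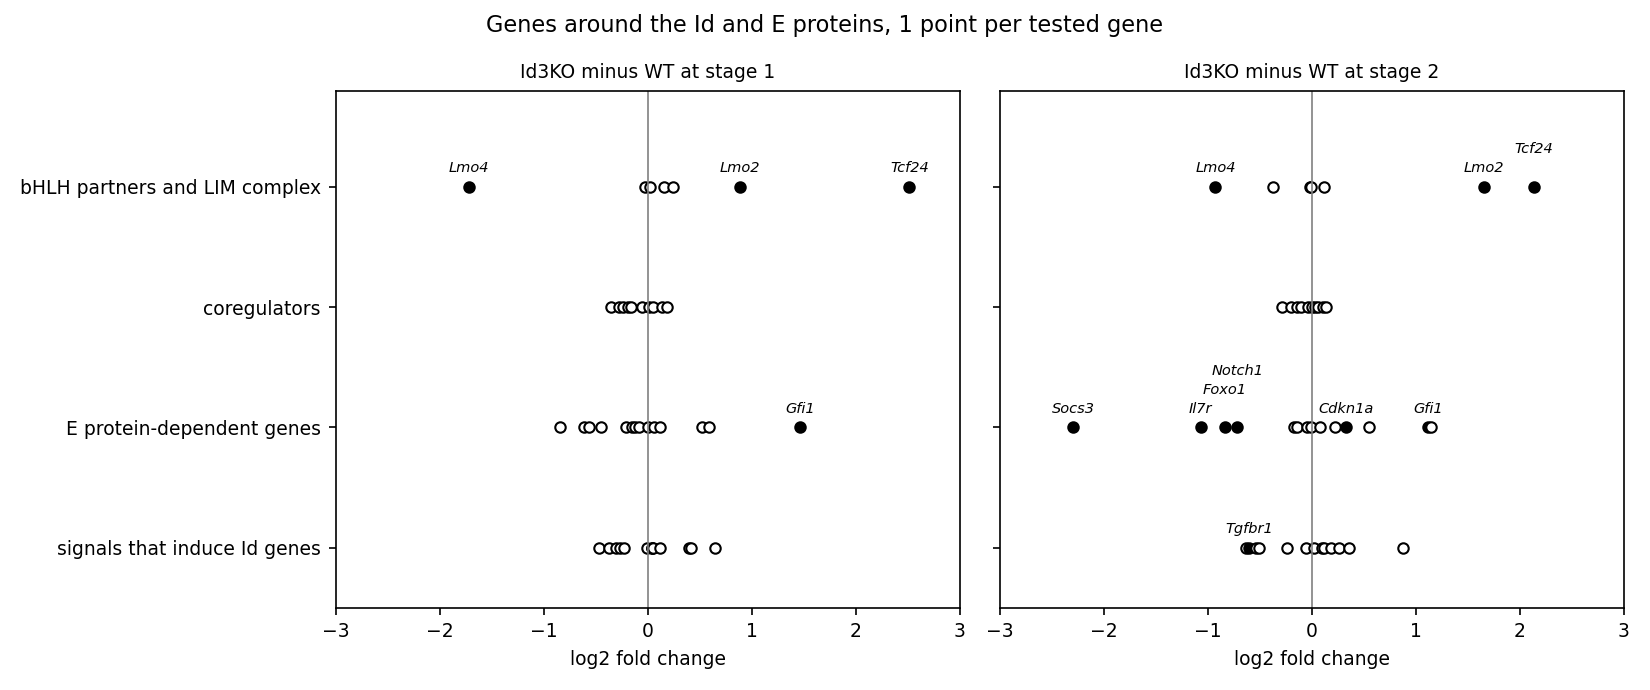
Log2 difference of Id3KO from WT at stage 1 (left) and stage 2 (right), with 1 point per tested gene and 1 line per list (filled and named, limma adjusted p under 0.05). Lmo2 lies above 0 and Lmo4 below it at both stages, and Socs3 is the lowest gene at stage 2. The points of Tcf24 are fitted values against WT arrays below the level, where only a lower bound holds.

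The genes whose pattern over the 10 arrays was most like that of a member were found by the mean absolute difference of mean-centred log2 values. For Id3 these were Itgae at 0.63, Lgals3 at 0.89 and Capg at 0.96. For Id2 they were Padi2 at 0.09, Btg1 at 0.11 and Cyth1 at 0.11. These genes were chosen for their likeness. As a description, their log2 differences of Id3KO from WT were -0.55 for Padi2, -0.46 for Btg1 and -0.64 for Cyth1 at stage 1, where the brightest Id2 probe set had -0.78, and -0.79, -0.76 and -0.75 at stage 2, where it had -0.70.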

How the data were processed

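The deposited files give intensities per probe set, linear, which the authors made with RMA per the submitters' processing notes, in a version not given in the sources used here. RMA summarises the probes of a set and normalizes between arrays, so differences are relative to each array's distribution. After a log2 transform, limma 3.58.1 in R 4.3.3 fitted a mean per group over all 10 arrays (6 residual and 2.80 prior degrees of freedom, two-sided). Adjustment was by the Benjamini-Hochberg method across all 25061 probe sets tested, and a result was called at an adjusted p under 0.05. The number of arrays limits the precision. In the lists, a gene was read by its brightest probe set on average, and up to 6 genes per list that passed at either stage were named. The members and lists were chosen with earlier results of these data known.

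Alternatives were no filter, a filter at log2 6.5, quantile normalization, centring on array medians, an intensity trend with robust prior, array weights, a replicate block, only the arrays compared, 1 probe set per gene and leaving out each array. A model with additive genotype and stage was chosen after seeing the data. The fit was tested on simulated data. Promoters are RefSeq's on GRCm38.p6.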

Additional observations from a re-analysis of the deposited data

How the results depend on the processing

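The count of member probe sets called was 1 at stage 1 under every alternative run, and 0 between stages and in the interaction. At stage 2 the count was 3, and 1 with 1 probe set per gene, where Id2 is read by its brightest probe set alone. It was 2 with no filter and with only the stage 2 arrays, and 4 with the stricter filter, the intensity trend and array weights, where the brightest Id2 probe set gained a call (adjusted p = 0.0424, 0.0471 and 0.0231). Leaving out each array in turn gave 1 to 4. In the average it was 4, 2 with 1 probe set per gene, and 1 to 4 when each array was left out. With the replicate number as a block, 1 was called at stage 1, 4 at stage 2 and 4 in the average, the brightest Id2 probe set gaining a stage 2 call (adjusted p = 0.0129). Under the block Lmo2 (0.0583) and Gfi1 (0.0681) lost their stage 1 calls, Cdkn1a (0.094) and Tgfbr1 (0.0531) their stage 2 calls and Smad3 (0.0926) its averaged call. Smad3 was also lost with no filter (0.0721), quantile normalization (0.0559) and array weights (0.0644), and Smad7 with no filter (0.0609). The correlation of deviations between arrays of the same number ran from -0.311 to 0.133 over 13 pairs, 2 of them above 0.1, so the numbers were not taken as pairs. In the additive model the averaged Id2 differences were -0.73, -0.74 and -0.54.

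No called result turned its sign. Among those not called, leaving out an array moved the stage 1 genotype difference of the brightest probe set over 0, from -0.39 to 0.039 for Tcf3 and from -0.25 to 0.065 for Tcf12. At stage 2 the range was -0.32 to 0.040 for Tcf4 and -0.19 to 0.0053 for Tcf12. The WT stage difference ran from -0.26 to 0.057 for Tcf12 and from -0.20 to 0.16 for Tcf4, and that of the brightest Id2 probe set was -0.030 with the block. The Id3KO stage difference ran from -0.019 to 0.33 for the middle Id2 probe set, from -0.23 to 0.19 for the dimmest and from -0.093 to 0.090 for Id3, which was 0.0017 with array weights and 0.067 with the block. The interaction ran from -0.12 to 0.21, from -0.21 to 0.14 and from -0.41 to 0.012 for the Id2 probe sets in order of brightness. The cause of these turns was not tested. Values near the 55.1 level, as for Tcf4 and for Id3 in Id3KO, are limited by signal over background.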
